A study of Mus musculus with 12 samples.

Results

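A set of 35 genes of apoptosis and of the p53 response was followed across pancreatic islets of 4 mouse genotypes. The genes were listed by function: p53 and its regulator, p53 target genes of growth arrest and DNA damage, INK4 inhibitors, members of the BCL2 family, death receptors and caspases. Each gene was read from the array probe set that carries its symbol alone, and from the one with the highest mean over the 12 arrays where there were several. In this way 32 of the 35 genes were measured, of 17097 genes in all, and 29 of them passed the filter on low levels (a mean log2 level of at least 3.43) and were tested, of 12825 tested genes. Trp53, Gdf15 and Bax had no such probe set and were not analysed here. Cdkn2a, Bak1 and Tnfrsf10b lay under the filter, with mean levels of 3.09, 3.40 and 3.43, the last just under it.

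Islets of Langerhans came from mice 12 weeks old on standard chow, with 3 Affymetrix arrays per genotype. The wild type group is called WT. In the hIAPP group the mice had a transgene encoding human islet amyloid polypeptide, from which islet amyloid forms. The BACE2-KO group lacked BACE2, an aspartyl protease of beta cells, and the hIAPP/BACE2-KO group carried the transgene and lacked BACE2. The labels give the strain B6;129P2-Bace2tm1Bdes/J for all 4 groups, WT included. The sources used here do not give the promoter or copy number of the transgene. They also leave open how many mice gave the islets of 1 array, and a p-value below therefore refers to the spread between arrays.

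As background, p53 is a transcription factor that is held low by the ubiquitin ligase MDM2 and is released by DNA damage and other stress. It binds pairs of short half-sites in DNA and turns on genes that halt the cell cycle, such as Cdkn1a, and genes that start cell death, such as Bbc3 and Pmaip1. The BH3-only proteins made from the latter bind survival members of the BCL2 family, which frees BAX and BAK to open the outer mitochondrial membrane. Cytochrome c then joins APAF1 and caspase 9 in the apoptosome, while death receptors such as FAS act through caspase 8. In islets, loss of beta cells by apoptosis is a known feature of diabetes, and aggregates of human amyloid polypeptide are known to be toxic to beta cells.

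Promoter sequences are shown for p53 targets with an unadjusted p under 0.05 for BACE2 loss, so that p53 half-sites can be read beside the values. Trp53inp1, which also passed, had no window in the sequences used. They are the 250 bases before the RefSeq gene start on assembly GRCm38.p6, printed 5′ to 3′ on the strand of the gene, with capitals marking matches to the consensus p53 half-site, a palindrome of 10 bases that reads the same on both strands. The Cdkn1a window lies at chr17:29090729-29090978 (+ strand), that of Ccng1 at chr11:40755287-40755536 (− strand), that of Gadd45a at chr6:67037408-67037657 (− strand) and that of Phlda3 at chr1:135765835-135766084 (+ strand).
Cdkn1a: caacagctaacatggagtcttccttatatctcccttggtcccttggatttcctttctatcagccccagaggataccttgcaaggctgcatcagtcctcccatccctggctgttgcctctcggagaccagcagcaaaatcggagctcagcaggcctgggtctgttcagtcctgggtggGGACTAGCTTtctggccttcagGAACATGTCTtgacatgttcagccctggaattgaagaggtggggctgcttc
Ccng1: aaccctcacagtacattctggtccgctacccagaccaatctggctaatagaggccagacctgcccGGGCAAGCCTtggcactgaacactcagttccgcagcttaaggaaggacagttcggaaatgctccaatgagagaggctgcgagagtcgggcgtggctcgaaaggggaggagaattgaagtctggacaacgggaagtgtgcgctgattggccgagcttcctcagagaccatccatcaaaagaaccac
Gadd45a: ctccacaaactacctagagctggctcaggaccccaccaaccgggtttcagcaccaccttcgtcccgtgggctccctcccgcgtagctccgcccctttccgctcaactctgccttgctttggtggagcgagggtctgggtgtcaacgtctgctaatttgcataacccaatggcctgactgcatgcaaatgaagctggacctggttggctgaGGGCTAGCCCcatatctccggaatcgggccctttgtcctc
Phlda3: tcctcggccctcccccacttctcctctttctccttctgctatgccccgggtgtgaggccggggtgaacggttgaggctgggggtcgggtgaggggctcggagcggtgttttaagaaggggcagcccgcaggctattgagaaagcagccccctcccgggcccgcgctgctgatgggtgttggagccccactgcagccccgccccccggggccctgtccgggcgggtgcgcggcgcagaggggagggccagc
Only exact matches are in capitals, and near matches were not searched for. The Cdkn1a window held 2 exact half-sites, which begin 73 and 51 bases before the start and are separated by a spacer of 12 bases. The bases directly after the second come close to the consensus and were not counted. A second annotated start of Cdkn1a, with its window at chr17:29093519-29093768, had none. The Ccng1 window had 1 half-site, 185 bases before the start, and the Gadd45a window had 1, 40 bases before the start. No match was present in the Phlda3 window. Among the 30 listed genes with a window, 9 had a half-site (Aen, Bax, Ccng1, Cdkn1a, Ei24, Gadd45a, Mdm2, Sesn1 and Trp53), in 9 of 42 windows or 21.4%, against 7.13% of all 32851 windows of this length. A pair of half-sites with a spacer of at most 13 bases was found in 21 windows of the whole table, or 0.0639%, and Cdkn1a was the 1 listed gene among them. A match describes letters in these windows and was not set against binding of p53, which was not measured.

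The arrays shared a scale, with median levels from 4.22 to 4.35. The level of Bace2, the targeted gene, was 11.09 ± 0.16 (SD, n = 3) in WT and 10.94 ± 0.08 (SD, n = 3) in BACE2-KO islets, and the difference for BACE2 loss averaged over transgene status was −0.15 (limma, adjusted p = 0.4405). Whether its probes lie in the deleted part of the gene is not given in the sources used here, so every direction below rests on the labels. Markers of beta cells had mean levels of 10.42 to 11.17 per array, with the lowest in hIAPP replicate 1. Markers of exocrine acinar cells, which surround islets in the pancreas, ranged from 9.53 to 12.06 within the WT arrays alone. In such whole-islet samples, fewer cells of a type and less RNA per cell cannot be told apart.

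Loss of BACE2, averaged over islets with and without the transgene, came with a higher level of Cdkn1a, which encodes the cyclin-dependent kinase inhibitor p21. It was the 1 gene of the 29 that was called (adjusted p under 0.05 in limma), or 3.45%, where 0.92% of all tested genes were called in this comparison and 0.413% were called as higher. At an unadjusted p under 0.05, 8 of the 29 passed, or 27.6%, against 11.4% of all genes, and 7 of the 8 were higher, where 6.7% of all genes were. Besides Cdkn1a these were Ccng1, Gadd45a, Phlda3, Trp53inp1, Bcl2 and Casp12 on the higher side and Bid on the lower side. The median difference of the 29 was 0.07 log2 units and that of all genes 0.02, with 65.5% of the former and 55.4% of the latter above 0.

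**Figure D1:**
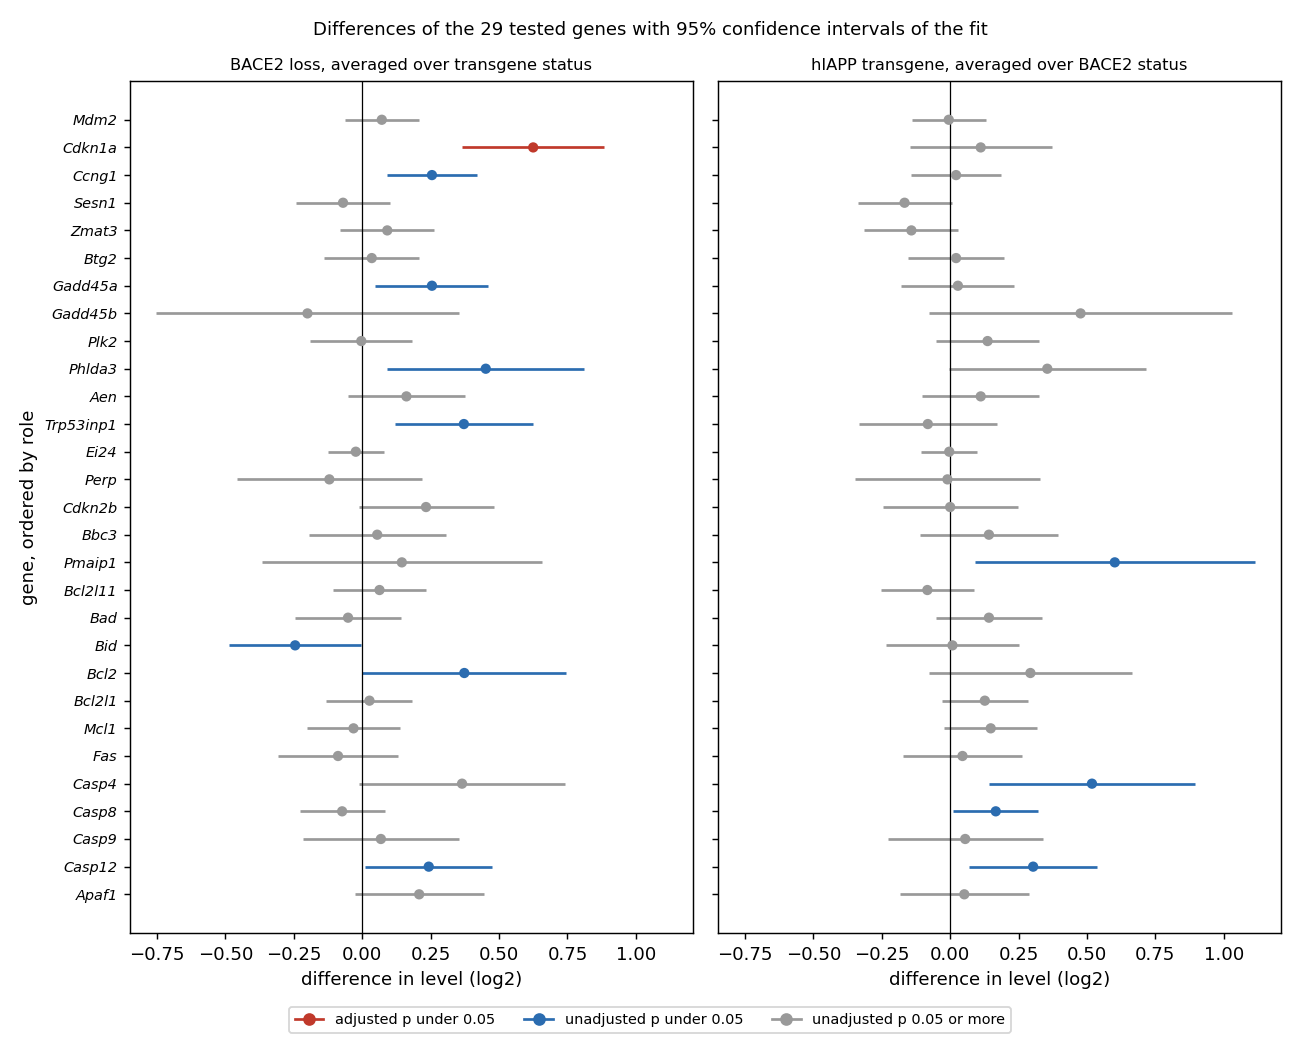
Log2 differences of the 29 tested genes for loss of BACE2 (left) and for the hIAPP transgene (right), each averaged over the other change, with points for the estimate and lines for its 95% confidence interval. Cdkn1a at the left, with an interval of 0.37 to 0.88, is the 1 gene with an adjusted p under 0.05.

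Cdkn1a had levels of 7.93, 8.17 and 8.39 in WT islets and of 8.18, 8.16 and 8.38 in hIAPP islets. In BACE2-KO islets the levels were 8.59, 8.69 and 8.98, and in hIAPP/BACE2-KO islets 8.59, 9.28 and 8.83. All 6 arrays without BACE2 lay above all 6 arrays with it, the nearest values being 8.59 and 8.39, and 0.717% of all genes were separated in this way. Cdkn1a rose by 0.62 log2 units or 1.54-fold with loss of BACE2 (SE 0.12, 95% interval 0.37 to 0.88, limma, adjusted p = 0.031), the rank of 77 by p among the 12825 genes. The difference was 0.59 between BACE2-KO and WT (adjusted p = 0.415) and 0.66 between hIAPP/BACE2-KO and hIAPP (adjusted p = 0.269), comparisons that share no array. The interaction, which tests whether these differ, was 0.07 with an interval of −0.45 to 0.59. The hIAPP transgene had a Cdkn1a difference of 0.08 in islets with BACE2 and 0.15 in islets without it. A second Cdkn1a probe set differed by 0.55 for BACE2 loss, with its groups touching at 7.72 with BACE2 and 7.69 without.

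The Cdkn1a call did not hold in every fit. The difference stayed between 0.53 and 0.70 when single arrays were left out, while the adjusted p ran from 0.0117 to 0.0977 over 19 alternatives, of which 10 kept the call. It was lost without WT replicate 1 (adjusted p = 0.0977) or 2 (0.0814), hIAPP replicate 1 (0.0564), 2 (0.085) or 3 (0.0544), BACE2-KO replicate 2 (0.0588) or 3 (0.0729), hIAPP/BACE2-KO replicate 3 (0.0573), and without a variance trend (0.0512).

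Genes of the PERK-ATF4 branch of the stress response, which act when protein folding in the endoplasmic reticulum or amino acid supply is disturbed, were set beside Cdkn1a. Their mean level per array was 8.50 to 8.98 with BACE2 and 8.91 to 9.26 without, ranges that overlap slightly. Of 21 tested genes of this list, 20 had a higher mean without BACE2, with a median difference of 0.25. In limma 0 were called, and 12 had an unadjusted p under 0.05, all higher. Over all tested genes 55.4% were higher, and 6.7% were higher with an unadjusted p under 0.05. Across the 12 arrays the level of Cdkn1a and this mean had a Pearson r of 0.88 (permutation p = 0.00025, adjusted p = 0.00325 over 13 relations) and a Spearman rho of 0.88 (permutation p = 0.00036, adjusted p = 0.00468). Without the 2 most distant arrays (WT replicate 1 and hIAPP replicate 1) r was 0.86, and within genotypes, after removal of the group means, 0.76. This relation was added after the values had been seen, which the adjustment over 13 relations does not cover. The permutations ignored genotype, so a genotype difference shared by Cdkn1a and the list can lower these p-values. The r within genotypes was not tested. Means of acinar markers by replicate were 12.06, 11.54 and 9.53 in WT islets, where the PERK-ATF4 means were 8.50, 8.82 and 8.98. In hIAPP islets they were 11.18, 10.33 and 11.1 beside 8.66, 8.97 and 8.96. In BACE2-KO islets they were 11.79, 11.33 and 10.44 beside 9.03, 9.16 and 9.26. For hIAPP/BACE2-KO they were 11.16, 10.74 and 10.2 beside 8.91, 9.23 and 9.22. The part of acinar cells in this relation was not tested.

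Immediate early genes, which respond within minutes to stimulation and also to tissue handling, gave another pattern. Their mean level was highest in hIAPP/BACE2-KO replicate 2, at 7.14, where the other 11 arrays lay between 6.39 and 6.78. The r with Cdkn1a was 0.70 (permutation p = 0.01, adjusted p = 0.0653), with a rho of 0.49 (permutation p = 0.105, adjusted p = 0.274). The pooled r was 0.20 without WT replicate 1 and hIAPP/BACE2-KO replicate 2. Within genotypes r was 0.92 over all arrays, and it was not computed without those arrays. The part of the immediate early genes and that of the PERK-ATF4 genes in the Cdkn1a difference was not tested.

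**Figure D2:**
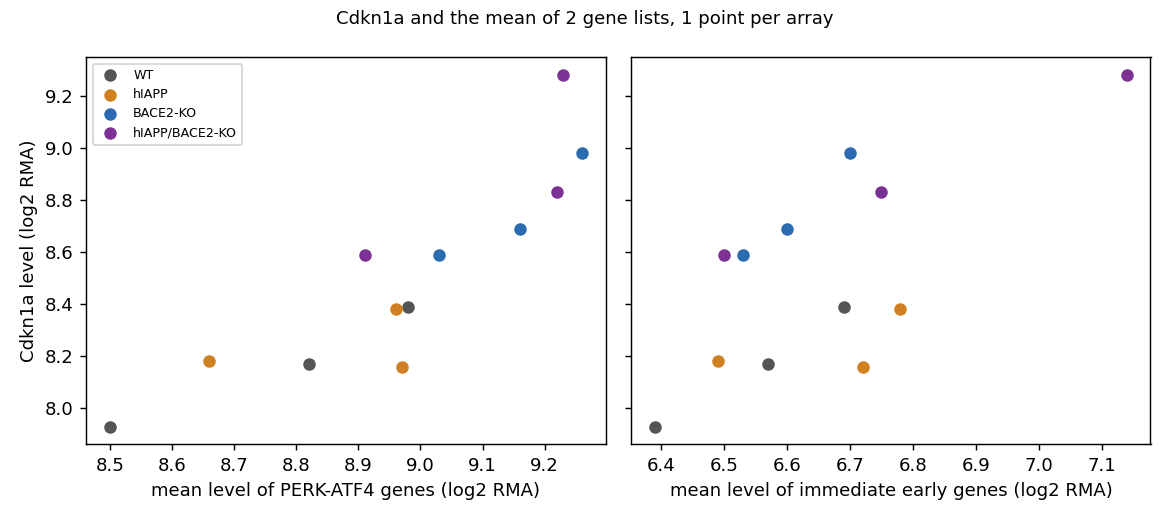
Cdkn1a level (log2) of each of the 12 arrays against the mean log2 level of PERK-ATF4 genes (left) and of immediate early genes (right), coloured by genotype. The 6 arrays without BACE2 lie at 8.59 or above on the vertical axis, and 1 hIAPP/BACE2-KO array stands apart at 7.14 on the right horizontal axis.

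Other p53 targets had smaller differences for BACE2 loss that did not pass the adjusted test. Ccng1, which encodes cyclin G1, a partner of MDM2 in feedback on p53, had levels of 9.47, 9.29 and 9.68 in WT islets, 9.52, 9.58 and 9.65 in hIAPP islets, 9.78, 9.82 and 9.85 in BACE2-KO islets, and 9.62, 9.97 and 9.68 in hIAPP/BACE2-KO islets. The BACE2-KO arrays lay above all arrays with BACE2, whereas those of hIAPP/BACE2-KO overlapped them. Against WT alone, 6.59% of all tested genes were higher in BACE2-KO without overlap. The share above all arrays with BACE2 was not counted. The difference for BACE2 loss was 0.26 (SE 0.08, adjusted p = 0.183), and the 2 other Ccng1 probe sets gave 0.30 and 0.36. Trp53inp1, a stress-induced nuclear protein that promotes p53 activity, read 9.35, 9.08 and 8.91 in WT islets, 9.41, 8.72 and 9.16 in hIAPP islets, 9.73, 9.41 and 9.51 in BACE2-KO islets, and 9.45, 9.53 and 9.23 in hIAPP/BACE2-KO islets. WT and BACE2-KO did not overlap here, as for 6.59% of all tested genes on the higher side, and the hIAPP arrays spanned most of the range. Its difference was 0.37 (SE 0.12, adjusted p = 0.21), with 0.39 from a second probe set.

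Gadd45a, a growth arrest gene induced by DNA damage, read 8.93, 8.79 and 8.60 in WT islets, 8.82, 8.73 and 8.83 in hIAPP islets, 9.22, 8.78 and 9.06 in BACE2-KO islets, and 8.90, 9.33 and 8.94 in hIAPP/BACE2-KO islets. The hIAPP/BACE2-KO arrays lay above the hIAPP arrays, as for 6.56% of all tested genes, while BACE2-KO overlapped WT. The difference for BACE2 loss was 0.26 (SE 0.10, adjusted p = 0.317).

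Phlda3, a p53 target that restrains AKT signalling and is known as a suppressor of islet tumours, was at its highest in islets with both changes. Its levels were 5.97, 5.73 and 5.98 in WT islets, 5.70, 5.81 and 6.19 in hIAPP islets, 6.15, 5.54 and 6.30 in BACE2-KO islets, and 6.35, 7.16 and 6.59 in hIAPP/BACE2-KO islets. All 3 of the latter lay above the other 9 arrays, the nearest of which was BACE2-KO replicate 3. Group by group, 6.56% of all tested genes lay above hIAPP in this way, 4.09% above BACE2-KO and 6.68% above WT. The share above all 9 was not counted. The hIAPP/BACE2-KO islets differed from hIAPP by 0.80 (SE 0.24, adjusted p = 0.348), from BACE2-KO by 0.70 (adjusted p = 0.962) and from WT by 0.81 (adjusted p = 0.324), values that share the hIAPP/BACE2-KO arrays. The interaction was 0.70 with an interval of −0.02 to 1.42 (limma, adjusted p = 0.9995), so a larger response to the joint change was not shown. Without hIAPP/BACE2-KO replicate 2 the difference from hIAPP was 0.57.

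Aen, a nuclease that is induced by p53 during apoptosis, showed a like order on a smaller scale. It read 7.56, 7.80 and 7.70 in WT islets, 7.78, 7.41 and 7.72 in hIAPP islets, 7.41, 7.86 and 7.79 in BACE2-KO islets, and 7.87, 8.12 and 7.89 in hIAPP/BACE2-KO islets. The hIAPP/BACE2-KO arrays lay just above all others, a separation with the same shares of all genes as for Phlda3. The difference of Aen between hIAPP/BACE2-KO and hIAPP was 0.32 (adjusted p = 0.557) and 0.21 without hIAPP replicate 2. Its second probe set did not separate the groups, with 6.10 in hIAPP/BACE2-KO replicate 1.

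**Figure D3:**
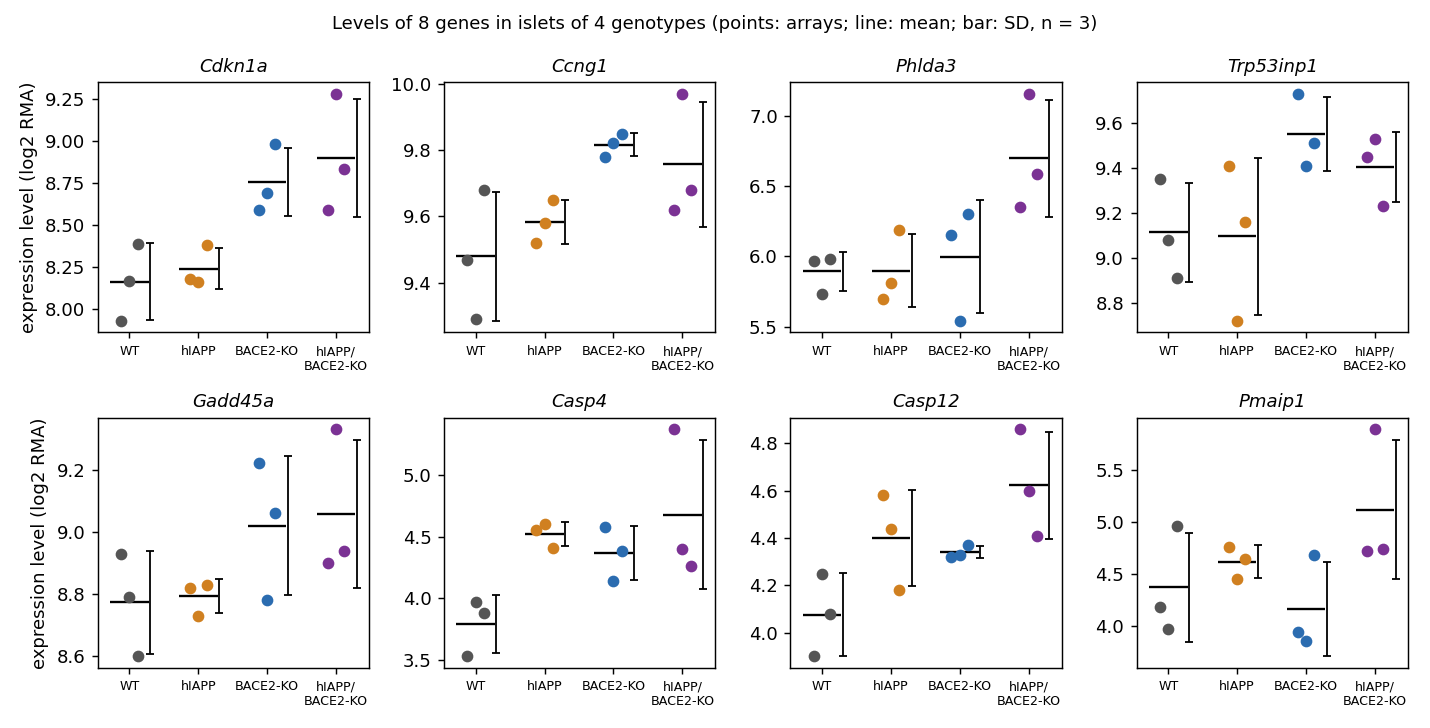
Log2 levels of 8 genes by genotype, with a point for each array, a line at the mean and a bar of 1 SD (n = 3), on vertical axes that do not start at 0. Cdkn1a separates the arrays with and without BACE2, and Phlda3 is highest in the 3 hIAPP/BACE2-KO arrays.

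The remaining genes of p53 control and growth arrest had differences for BACE2 loss between −0.20 and 0.09, with no unadjusted p under 0.05 in any comparison. Mdm2, the p53 ubiquitin ligase and itself a p53 target, ranged from 7.93 to 8.18 over the 12 arrays and differed by 0.07. Ei24 was the steadiest gene of the set, from 9.69 to 9.87. Sesn1, a sestrin that restrains mTORC1, ranged from 8.31 to 8.84, and Zmat3, an RNA-binding p53 target, from 7.41 to 7.89. The antiproliferative gene Btg2 ranged from 9.29 to 9.73, the kinase gene Plk2 from 8.07 to 8.69 and Perp, a membrane protein of desmosomes, from 6.30 to 7.23. Gadd45b, a relative of Gadd45a, stood at 8.68 in hIAPP replicate 1 and at 6.59 to 7.65 in the other 11 arrays. That single array set its difference between hIAPP and WT, which was 0.51 with it and −0.04 without it. Cdkn2b, an INK4 inhibitor of cyclin D kinases, ranged from 7.01 to 7.74, with a BACE2 loss difference of 0.23 (adjusted p = 0.468).

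Among the BH3-only genes, Pmaip1, which encodes NOXA, varied most. It read 4.18, 3.97 and 4.96 in WT islets, 4.76, 4.45 and 4.64 in hIAPP islets, 3.94, 3.86 and 4.68 in BACE2-KO islets, and 4.72, 5.89 and 4.74 in hIAPP/BACE2-KO islets. The WT and BACE2-KO groups each held 1 array far above the other 2, and hIAPP/BACE2-KO replicate 2 stood above all. The difference for the transgene, averaged over BACE2 status, was 0.60 (SE 0.24, limma, adjusted p = 0.644). In islets without BACE2 it was 0.96 (adjusted p = 0.962), or 0.57 without hIAPP/BACE2-KO replicate 2.

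Bad, whose product is inactivated by AKT phosphorylation, read 7.29, 7.38 and 6.98 in WT islets, 7.73, 7.44 and 7.47 in hIAPP islets, 7.44, 7.23 and 7.39 in BACE2-KO islets, and 7.42, 7.26 and 7.24 in hIAPP/BACE2-KO islets. The hIAPP arrays lay above WT by 0.33 (SE 0.13, adjusted p = 0.95), but 0.21 without WT replicate 3, and the second probe set gave 0.04. Of all tested genes, 3.39% were higher in hIAPP than in WT without overlap. Bid, which links caspase 8 to mitochondria, read 6.54, 6.07 and 6.13 in WT islets, 6.47, 6.49 and 6.33 in hIAPP islets, 6.20, 6.30 and 6.03 in BACE2-KO islets, and 5.76, 6.13 and 6.14 in hIAPP/BACE2-KO islets. The hIAPP/BACE2-KO arrays lay under the hIAPP arrays, with a difference of −0.42 (SE 0.16, adjusted p = 0.472), and −0.14 by another probe set above the filter. Such a separation on the lower side was found in 4.57% of all tested genes. Bbc3, which encodes PUMA, ranged from 5.23 to 5.79 and Bcl2l11, which encodes BIM, from 7.70 to 8.08, with differences for BACE2 loss of 0.06 for each. Bbc3 was also higher in hIAPP than in WT without overlap, by 0.25 (limma, adjusted p = 0.95). Bcl2l11 and Zmat3 were lower there without overlap, with differences of −0.15 and −0.23 (limma, adjusted p = 0.95 for each). Such a separation on the lower side held for 5.77% of all tested genes.

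Of the survival genes, Bcl2 had the widest range. Its levels were 4.95, 5.42 and 4.98 in WT islets, 5.33, 5.78 and 5.35 in hIAPP islets, 5.04, 5.87 and 5.79 in BACE2-KO islets, and 5.51, 5.71 and 6.13 in hIAPP/BACE2-KO islets. WT and hIAPP/BACE2-KO did not overlap, with a difference of 0.67 (SE 0.24, adjusted p = 0.453), and a second probe set gave 0.42. Of all tested genes, 6.68% were separated as higher between these groups. Bcl2l1, which encodes BCL-XL, ranged from 7.45 to 7.78 and Mcl1 from 9.65 to 10.10. The death receptor gene Fas ranged from 3.53 to 4.02, close to the filter level.

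The caspase genes Casp4 and Casp12, murine members of the inflammatory caspase cluster, had their lowest mean in WT islets. Casp4, which encodes caspase 11, the sensor of cytosolic lipopolysaccharide, read 3.53, 3.97 and 3.88 in WT islets, 4.55, 4.60 and 4.41 in hIAPP islets, 4.58, 4.14 and 4.38 in BACE2-KO islets, and 5.37, 4.40 and 4.26 in hIAPP/BACE2-KO islets. All 3 WT arrays lay under the other 9, and hIAPP/BACE2-KO replicate 1 stood highest. Of all tested genes, 3.39% lay above WT without overlap in the hIAPP arrays. The same share was 6.59% for loss of BACE2 alone and 6.68% for both changes together. The share with WT under all 9 was not counted. The differences from WT were 0.73 for hIAPP (SE 0.25, adjusted p = 0.95), 0.57 for BACE2-KO (adjusted p = 0.755) and 0.88 for hIAPP/BACE2-KO (adjusted p = 0.289), all against the same WT arrays. Without hIAPP/BACE2-KO replicate 1 the last was 0.54. The WT levels of Casp4 lay close to the filter level of 3.43, and the gene had 1 probe set.

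Casp12, a caspase tied to endoplasmic reticulum stress in mice, read 3.90, 4.25 and 4.08 in WT islets, 4.58, 4.44 and 4.18 in hIAPP islets, 4.32, 4.33 and 4.37 in BACE2-KO islets, and 4.86, 4.60 and 4.41 in hIAPP/BACE2-KO islets. Both BACE2-KO and hIAPP/BACE2-KO lay above WT, as for 6.59% and 6.68% of all tested genes, and hIAPP overlapped WT. The largest of its differences was 0.55 between hIAPP/BACE2-KO and WT (SE 0.15, adjusted p = 0.289), while a second Casp12 probe set, under the filter, gave 0.15. Casp8, the initiator caspase of death receptors, read 7.96, 8.20 and 8.01 in WT islets, 8.23, 8.16 and 8.13 in hIAPP islets, 7.83, 7.88 and 8.09 in BACE2-KO islets, and 8.24, 8.20 and 8.01 in hIAPP/BACE2-KO islets. The 6 arrays with the transgene, from 8.01 to 8.24, overlapped the 6 without it, from 7.83 to 8.20, and its difference for the transgene was 0.17 (adjusted p = 0.644). The apoptosome genes Casp9 and Apaf1 ranged from 5 to 5.73 and from 5.92 to 6.62, with no unadjusted p under 0.05.

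Macrophages express inflammatory caspases, and their markers were read in the same arrays. Of 17 tested markers 16 had a higher mean in hIAPP than in WT islets, with a median difference of 0.64. In limma 0 were called, and 7 had an unadjusted p under 0.05, all higher. Over all tested genes 41.2% were higher, and 1.43% were higher with an unadjusted p under 0.05. The mean of 18 macrophage markers was 5.56 to 5.92 in WT islets, 6.11 to 6.53 in hIAPP islets, 5.56 to 5.95 in BACE2-KO islets and 5.56 to 6.62 in hIAPP/BACE2-KO islets. Its r with Casp4 over the 12 arrays was 0.00 (permutation p = 0.995, adjusted p = 0.995) and rho 0.18 (permutation p = 0.572, adjusted p = 0.743), with an r of −0.15 without hIAPP replicate 1 and hIAPP/BACE2-KO replicate 2 and of −0.71 within genotypes. The array with the highest Casp4 had the joint lowest macrophage mean of 5.56. The part of macrophages in the Casp4 differences was not tested. Interferon-stimulated genes, among which Casp4 is often counted, had array means of 7.32 to 7.62 in WT islets, 7.17 to 7.85 in hIAPP islets, 6.66 to 7.45 in BACE2-KO islets and 7.49 to 7.71 in hIAPP/BACE2-KO islets, and their part in the Casp4 differences was not tested. None of the other relations computed passed after adjustment: Btg2, Gadd45a, Gadd45b, Mcl1 and Plk2 with immediate early genes, Casp8 and Fas with macrophage markers, and Bbc3, Trp53inp1 and Tnfrsf10b with PERK-ATF4 genes.

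Apart from Cdkn1a under BACE2 loss, 0 of the 29 genes were called by limma in any comparison, and the counts at an unadjusted p under 0.05 were small. Between hIAPP and WT 2 passed (Bad and Casp4), or 6.9%, against 4.52% of all genes, of which 0.0156% were called after adjustment. Between BACE2-KO and WT 4 passed (Cdkn1a, Ccng1, Trp53inp1 and Casp4), or 13.8% against 6.28%, with 0.125% called. Between hIAPP/BACE2-KO and hIAPP 4 passed (Cdkn1a, Phlda3, Aen and Bid), or 13.8% against 8.37%, with 0.101% called. Between hIAPP/BACE2-KO and BACE2-KO 2 passed (Phlda3 and Pmaip1), or 6.9% against 4.44%, with 0% called. Hence the shares of the first and the last comparison were near those of all genes when both directions were counted. The passing genes of these comparisons were all higher, where 1.43% and 2.36% of all genes passed on that side. Between hIAPP and WT 72.4% of the 29 genes and 41.2% of all genes lay above 0, with medians of 0.08 and −0.03. Between hIAPP/BACE2-KO and BACE2-KO these shares were 62.1% and 45.8%, with medians of 0.04 and −0.01.

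Among the pairs of genotypes, islets with both changes against WT had the highest count. There 7 of the 29 passed at an unadjusted p under 0.05 (Cdkn1a, Ccng1, Phlda3, Pmaip1, Bcl2, Casp4 and Casp12), all higher, or 24.1% against 8.43% of all genes and 3.88% on the higher side, with 0.133% called. The median difference was 0.15 for the 29 genes and 0.00 for all genes, and 22 of the 29 lay above 0. In the same comparison 12 of 12 tested stellate cell markers were higher (median 0.55), 14 of 17 macrophage markers were higher (median 0.36), 11 of 12 acinar markers were lower (median −0.35) and 7 of 9 beta cell markers were lower (median −0.24). In limma 0 of these markers were called, with 3, 1, 0 and 0 at an unadjusted p under 0.05, and their part in the result was not tested. Over all tested genes 49.1% were higher in this comparison. For the transgene averaged over BACE2 status 4 passed (Pmaip1, Casp4, Casp8 and Casp12), or 13.8% against 7.59%, with 0.0078% called, and a median of 0.06 against −0.02. Beside this, 12 of 12 stellate cell markers were higher (median 0.44) and 9 of 9 beta cell markers lower (median −0.23) with the transgene. In limma 0 of them were called, with 5 and 4 at an unadjusted p under 0.05, and their part was not tested either. Over all tested genes 42.1% were higher with the transgene. For the interaction 0 of 29 passed, where 2.4% of all genes did and 0.0078% were called. In the F test over the 4 genotypes 6 passed, or 20.7% against 8.26%, with 0.179% called, and the smallest adjusted p of the set was 0.201, for Cdkn1a. Since the genes were listed with earlier results known, these shares are descriptions.

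Several genes were highest in 1 and the same array. Replicate 2 of hIAPP/BACE2-KO held the highest value of 12 of the 29 genes, or 41.4%, where it held the highest value of 9.76% of all genes. The 12 were Cdkn1a, Ccng1, Gadd45a, Plk2, Phlda3, Aen, Cdkn2b, Pmaip1, Bcl2l1, Mcl1, Casp9 and Apaf1. The same array was highest in immediate early genes (7.14), in macrophage markers (6.62), in stellate cell markers (6.50, others 5.24 to 5.84) and in duct markers (8.80, others 7.57 to 8.19). Their part in these values was not tested. Without that array the median difference for BACE2 loss stayed above 0, as it did without any other array (0.03 to 0.12).

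**Figure D4:**
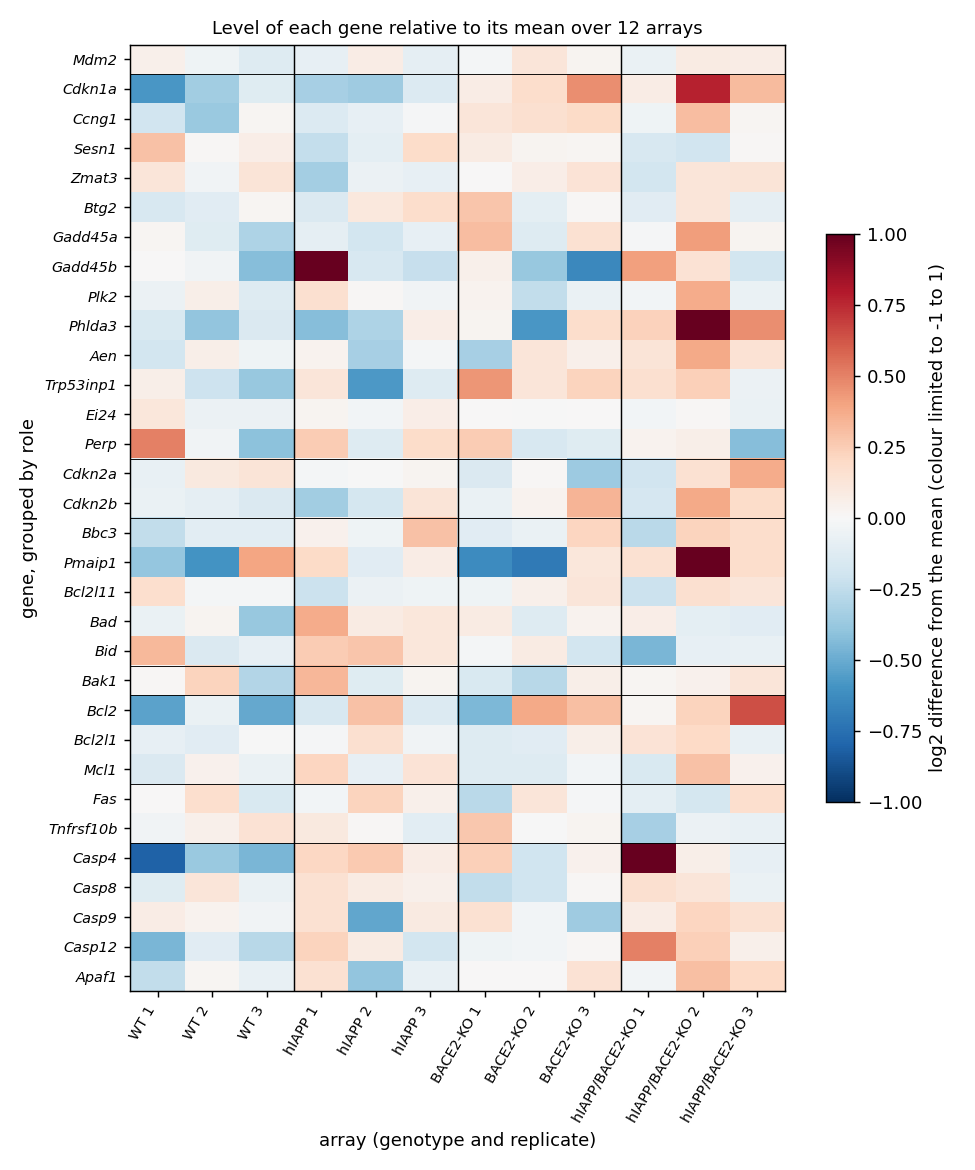
Level of each of the 32 measured genes relative to its own mean over the 12 arrays (log2 colour scale limited to −1 to 1), with genes in rows by role and arrays in columns by genotype. The column of hIAPP/BACE2-KO replicate 2 holds the highest value of 12 of the 29 tested genes.

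None of the other genes of the same pathways was called under BACE2 loss. Of 32 tested p53 pathway genes outside the set, 20 were higher and 12 lower without BACE2, with a median difference of 0.04, and limma called 0, with 0 at an unadjusted p under 0.05. The 3 with the smallest p in the F test were Sfn, Eda2r and Ckap2. Sfn, which encodes the p53 target 14-3-3 sigma, was 3.76 ± 0.27 in WT islets, 3.68 ± 0.36 in hIAPP islets, 3.74 ± 0.12 in BACE2-KO islets and 4.42 ± 0.57 in hIAPP/BACE2-KO islets (SD, n = 3), the group in which Phlda3 was also highest. Its difference from hIAPP was 0.74 (adjusted p = 0.429 in limma). Eda2r, a p53-induced receptor, differed by 0.27 for BACE2 loss (adjusted p = 0.463) and Ckap2, a spindle protein, by 0.08 (adjusted p = 0.863).

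Of 28 tested genes of the apoptosis machinery outside the set, 16 were higher and 11 lower without BACE2, with a median of 0.03; limma called 0, and 2 had an unadjusted p under 0.05. Dffb, the nuclease that cuts DNA between nucleosomes in apoptosis, was 5.35 ± 0.22 in WT islets, 4.76 ± 0.29 in hIAPP islets, 5.82 ± 0.34 in BACE2-KO islets and 5.48 ± 0.23 in hIAPP/BACE2-KO islets (SD, n = 3). It differed by 0.59 for BACE2 loss (SE 0.15, adjusted p = 0.105 in limma). Tradd, an adaptor of TNF receptor signalling, differed by 0.28 (adjusted p = 0.408) and the receptor gene Tnfrsf1a by 0.16 (adjusted p = 0.561). Of 19 tested cell cycle genes, which p21 is known to hold down, 4 were higher and 15 lower without BACE2, with a median of −0.05 and 1 called as lower, where 0.507% of all genes were. That gene, named after its value was seen, was Mcm6, a subunit of the replicative helicase, which fell by 0.71 (SE 0.10, adjusted p = 0.00986 in limma). It was also the 1 gene of the 19 with an unadjusted p under 0.05. A link of these genes to the Cdkn1a level was not tested. The medians for BACE2 loss of the immediate early, interferon, macrophage, lymphocyte, endothelial, stellate, acinar, duct, beta cell, and alpha and delta cell lists lay between −0.13 (macrophage) and 0.19 (stellate). In limma 0 of their genes were called, and between 0 and 5 genes of each list had an unadjusted p under 0.05.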

How the data were processed

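Islet RNA of 12 mouse samples was hybridised to Affymetrix arrays. The deposited table holds log2 levels of 45141 probe sets. Per the submitters' processing notes they come from RMA and affy, with versions and genome build not given in the sources used. RMA sets the arrays on a common distribution, so levels are relative. Arrays have no read depth; their number limits the precision.

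The platform annotation gave 28898 probe sets a single symbol, 551 several and 15692 none. Each gene was read from its probe set with the highest mean, and genes whose mean fell short of the 25th percentile (3.43) were left out. A mean per genotype was fitted to all 12 arrays with limma 3.58.1 in R 4.3.3 (lmFit, eBayes with a variance trend), with two-sided tests and Benjamini-Hochberg adjustment over the 12825 genes; a gene was called at an adjusted p under 0.05. The limma fit for BACE2 loss was tested on simulated data with independent noise, and the other steps were not tested in this way. Relations between genes and list means over the arrays used two-sided permutation tests (100000 resamples, SciPy 1.17.1 in Python 3.11.15). The arrays were permuted without regard to genotype.

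The set and the lists were chosen with earlier results of these data known. Array values are given for genes of the set with an unadjusted p under 0.05 in any comparison, and of the 2 outside pathway lists the 3 genes with the smallest F test p are named. Sesn2 stands in 2 lists, as does Atf3. Same-numbered arrays of different genotypes had correlations of their deviations from −0.13 to 0.37 over 18 pairs, so the numbers were not taken to pair samples. Alternatives were another filter, other probe set rules, other scalings, no variance trend, only the groups compared, a replicate block and leaving out each array.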

Additional observations from a re-analysis of the deposited data

How the results depend on the processing

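The differences of the 29 genes were refitted under 8 alternatives other than leaving out an array (2 other filters, the mean of a gene's probe sets, a further quantile normalization, centring on array medians, no variance trend, only the groups compared and a replicate block) and 12 fits without 1 array each. The number of the 29 genes called under BACE2 loss was 1 in the fit reported, 0 without a variance trend, and 0 to 1 when single arrays were left out. It was 0 for each other comparison under every alternative that was run. The median differences of the 29 genes moved by less than 0.117, the SD of their median level between arrays of a genotype, under each of them. Leaving out 1 array changed the sign of the small median between hIAPP/BACE2-KO and BACE2-KO (−0.02 to 0.14) and that of the interaction (−0.06 to 0.04). The replicate block, fitted although the numbers do not pair the samples, left 1 of the 29 called under BACE2 loss and 0 elsewhere; over all genes it raised the count under BACE2 loss from 118 to 205. When single arrays were left out, the counts over all genes were 46 to 108 under BACE2 loss, 5 to 16 between BACE2-KO and WT (16 with all arrays), 4 to 17 between hIAPP/BACE2-KO and hIAPP (13) and 0 to 18 between hIAPP/BACE2-KO and WT (17). Under the other alternatives these 4 counts ran from 83 to 205, 6 to 22, 3 to 29 and 4 to 27, and that of the F test from 12 to 37 (23). The cause was not tested.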
